A study of Mus musculus with 19 samples.

Results

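The blood clotting cascade and the complement system are chains of plasma proteases, cofactors and inhibitors that are made for the most part by hepatocytes. The 41 mouse genes described here encode such proteins, together with a pair of enzymes of the vitamin K cycle, and were picked by gene symbol from the 51826 gene entries of the liver expression table. Of the 41 genes, 22 belong to coagulation and fibrinolysis and 19 to complement, and they were placed in 11 roles. Each symbol was present once, and none of the 41 genes was lost to the low-expression filter, which asked for a mean of 0.1 TPM or more. Liver poly(A) RNA came from 19 female Balb/c mice, each labelled as 12 weeks old. There were 7 nulliparous mice, 6 mice at lactation day 10 and 6 mice at involution day 6, which is day 6 after weaning. None of the mice carried a transgene or received a drug, as far as the labels state. The study's methods name a pair of vendors for its mice without saying which animal came from which.

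In coagulation, proteases that circulate as inactive zymogens activate each other in turn until thrombin forms fibrin from fibrinogen. Several of these zymogens need gamma-carboxylation, which depends on vitamin K, and they are restrained by antithrombin, by heparin cofactor II and by the protein C and protein S pathway. Plasmin, made from plasminogen, dissolves fibrin. Complement is started by antibody through C1 (the classical pathway), by sugar-binding lectins (the lectin pathway) or directly on surfaces (the alternative pathway). All routes meet at C3 and end in the terminal components, which assemble a pore in the target membrane.

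Expression was given as TPM, a share of all transcripts corrected for gene length, so levels can be compared between genes. TPM keeps no read depth, so the error of each value was taken from the differences among mice of a stage. Genes at 1 TPM or more numbered 11209 to 11797 per mouse. The mice fell into 2 ranges of animal number, from 1 to 240: 3 nulliparous and 3 lactating mice were numbered under 200, whereas 4 nulliparous, 3 lactating and all 6 involution mice were numbered 200 or above. Neither the labels nor the methods name these ranges as a batch. Between them, with stage in the model, 4149 of 16230 genes differed (25.6%), so involution and animal number cannot be told apart against the lower-numbered mice. Hepatocyte markers were abundant in every mouse, and no marker gene of any cell type examined was at 0 in every mouse.

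All 41 genes were above 1 TPM in every mouse. Their means over the 19 mice ran from 5.64 TPM for C6 to 5460 TPM for Serpinc1 (antithrombin), with a median of 208 TPM. Summed over the 41 genes, the level in nulliparous mice had a median of 2.07% of all TPM and a range of 1.86% to 2.43%. Lactating mice had a median of 2.01% (range 1.89% to 2.28%), and involution mice one of 2.51% (range 2.34% to 2.71%). The lactating mice thus lay within the range of the nulliparous mice, of which 1, at 2.43%, reached into the range of the involution mice. Within a stage the SD of a gene was 3.46% to 36.1% of its mean. The tightest values were those of C1s1 at involution day 6 and the widest those of C8a in nulliparous mice.

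Each gene was tested with limma on log2(TPM + 1), with all 19 mice fitted together and p-values adjusted over 16230 genes by Benjamini-Hochberg, and a gene passed at an adjusted p under 0.05. At lactation day 10 compared with nulliparous mice, 8 of the 41 genes passed, against 9.21% of all genes. Kng1 was the only one of them that was higher (2.72% of all genes), and 7 were lower, namely F11, Klkb1, Proc, C2, C6, C9 and Serping1 (6.49% of all genes). At involution day 6 compared with lactation day 10, 24 of the 41 genes passed, against 22.8% of all genes. Of these, 23 were higher (18.1% of all genes) and Kng1 alone was lower (4.73% of all genes). At involution day 6 compared with nulliparous mice, 10 of the 41 genes passed, against 4.36% of all genes, and all 10 were higher (3.44% of all genes, with 0.912% lower). The tests were limma's throughout, and at an unadjusted p under 0.05 1 of the 41 genes was lower in this last comparison.

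Altogether 26 of the 41 genes passed in at least 1 comparison (25.8% of all genes did) and 15 in none (74.2%). The 3 comparisons share mice, the lactating animals standing in the first and the second and the involution animals in the second and the third, so they are not independent. With this said, 7 genes were lower in lactation than in nulliparous mice and higher at involution than in lactation (5.18% of all genes), 8 were higher at involution than at both other stages (2.66%), and 15 passed as higher at involution compared with lactation but not compared with nulliparous mice (15.4%). The median difference over the 41 genes was -0.157 (log2) at lactation day 10 compared with nulliparous mice, against -0.032 over all genes tested. It was 0.328 at involution day 6 compared with lactation day 10, against 0.099, and 0.209 compared with nulliparous mice, against 0.065.

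**Figure D1:**
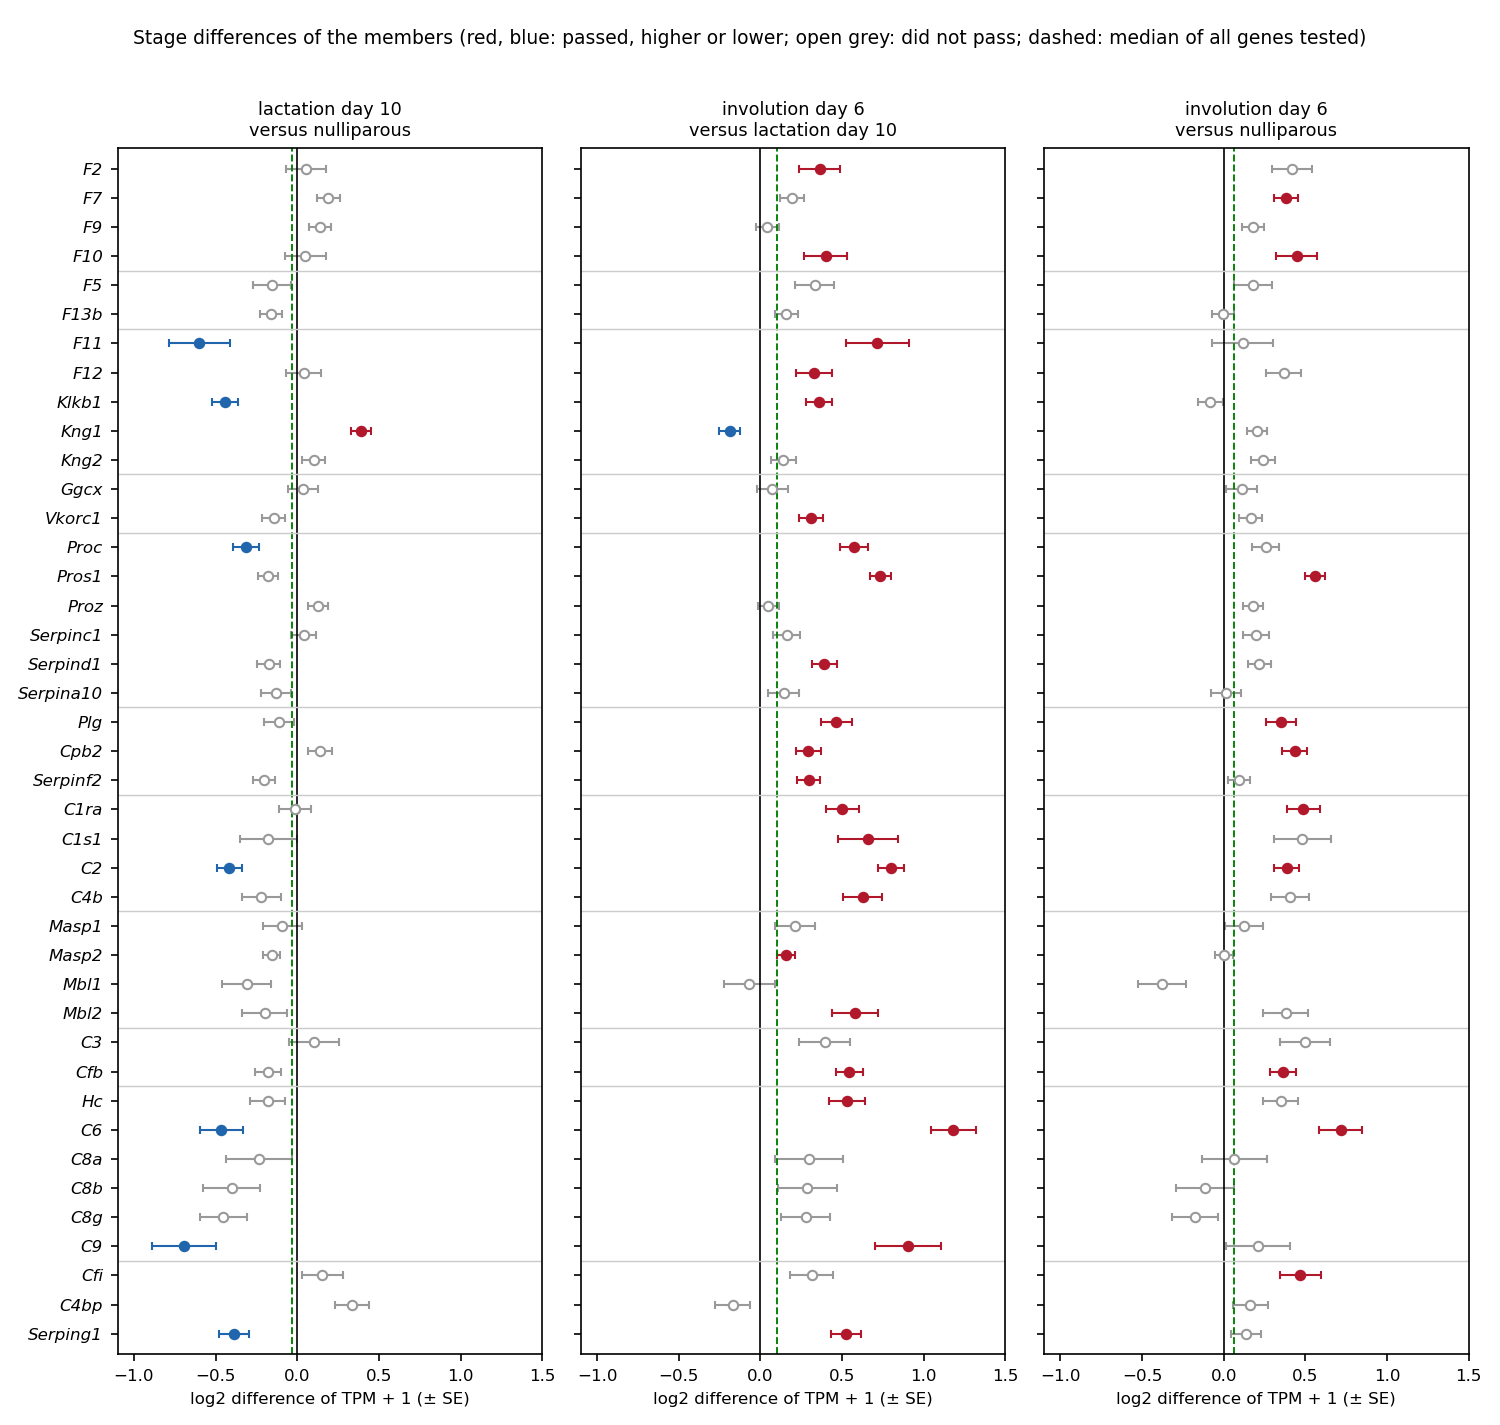
Log2 difference of TPM + 1 with its SE (horizontal axis) for each of the 41 genes (vertical axis, in order of role, with lines between roles) in the 3 comparisons of stages. Filled points passed at an adjusted p under 0.05 (red higher, blue lower), open grey points did not pass, and the dashed line is the median of all 16230 genes; 8, 24 and 10 genes are filled from the left to the right panel.

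The differences were of moderate size. With a log2 fold change of at least 1 also required, which is the threshold the study used, 1 gene of the 41 passed at involution day 6 compared with lactation day 10 (C6, against 1.93% of all genes). No gene of the 41 did so in the other comparisons, where 0.746% (lactation compared with nulliparous) and 0.253% (involution compared with nulliparous) of all genes did, and at an unadjusted p under 0.05 the limma counts of that size were also 0. The mice of lactation day 10 and the nulliparous mice did not overlap for 5 of the 41 genes (3.27% of all genes), namely Klkb1, Kng1, Proc, C2 and Serping1. Those of involution day 6 and lactation day 10 did not overlap for 16 genes (11.5% of all genes). Those of involution day 6 and the nulliparous stage did not overlap for 10 genes (2.38% of all genes), of which F12, Kng1, C1s1 and Mbl2 did not pass the limma test in that comparison.

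**Figure D2:**
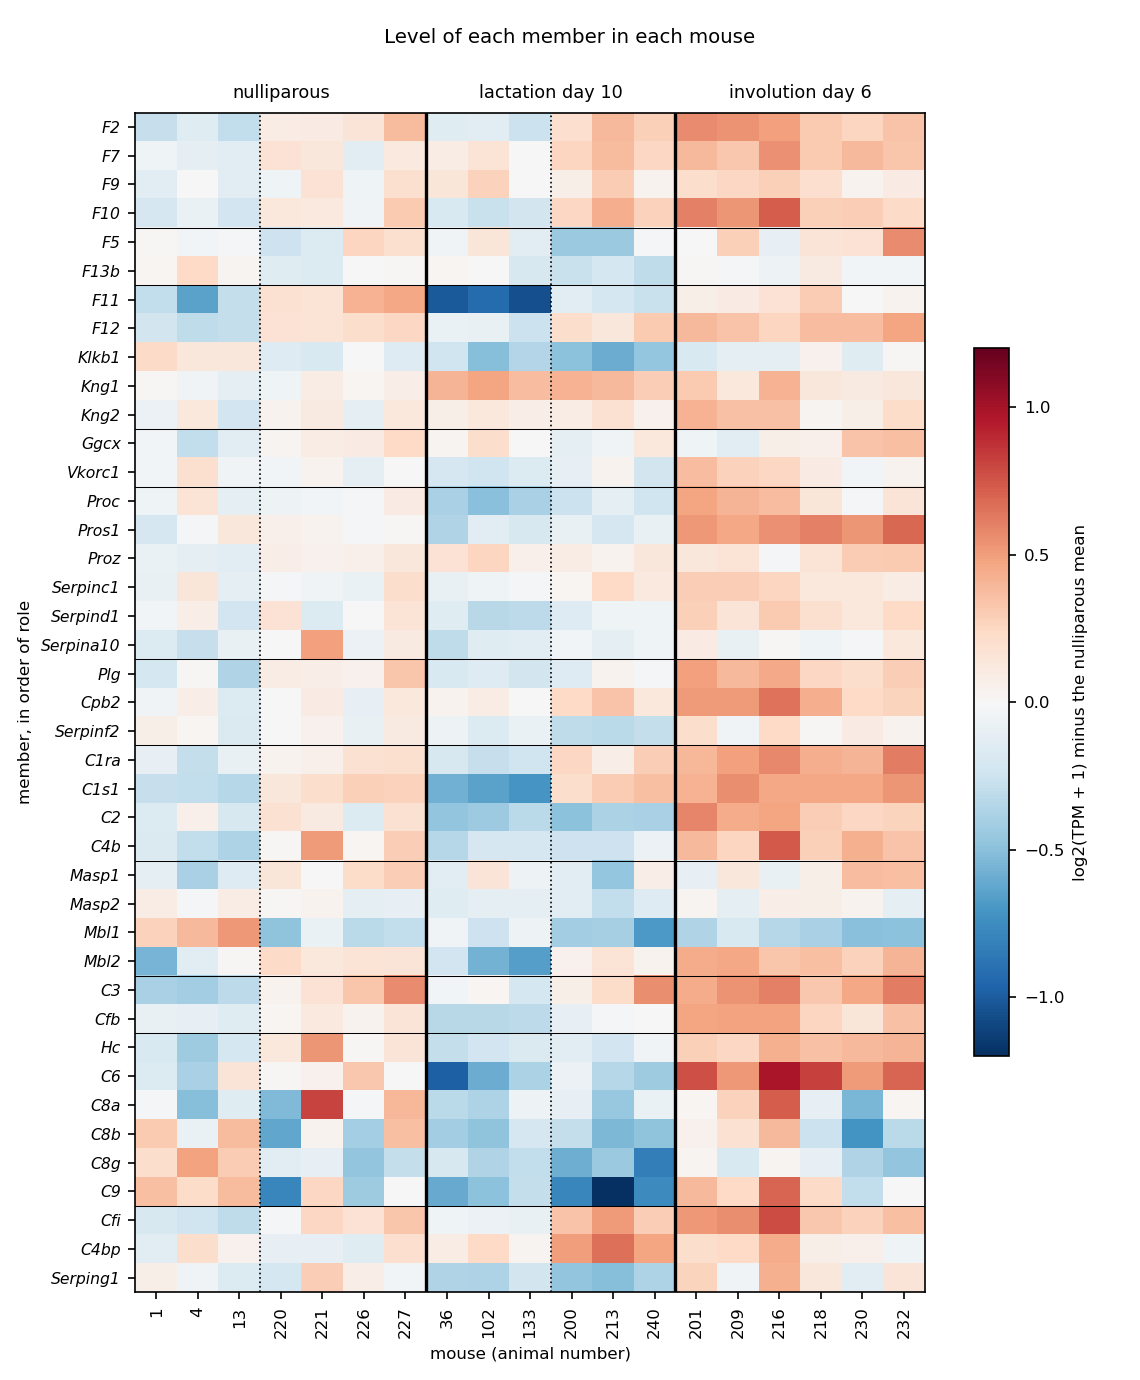
Level of each gene (rows, in order of role) in each of the 19 mice (columns, by animal number within stage), as log2(TPM + 1) minus the mean of the nulliparous mice. Solid vertical lines part the stages and dotted lines part animal numbers under 200 from those of 200 and above; Pros1, C6 and C1ra are above the nulliparous mean in all 6 involution mice, and the rows of F11 and C1s1 step at the dotted lines.

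The 4 vitamin K-dependent zymogens of the procoagulant branch were prothrombin (F2), factor VII (F7), factor IX (F9) and factor X (F10). With all 19 mice and TPM as given, all 4 had differences above 0 in every comparison, but at involution compared with lactation each turned below 0 under some rescaling of TPM by median ratios: F9 (-0.12) with the scaling alone, F7 (-0.025) with the range of animal number also as a covariate, and F2 (-0.014) and F10 (-0.016) with only the mice numbered 200 and above. None passed at lactation day 10 compared with nulliparous mice (limma; at an unadjusted p under 0.05 F7 alone did). F7 was higher in that comparison with the range as a covariate (log2 difference 0.204, adjusted p = 0.0166), with median-ratio scaling (0.244, adjusted p = 0.0472) and with both (0.251, adjusted p = 0.0199). F7, the protease that tissue factor recruits to start clotting, was 109 ± 10.5 TPM in nulliparous mice (SD, n = 7), 124 ± 11.7 TPM at lactation day 10 (n = 6) and 141 ± 9.14 TPM at involution day 6 (n = 6). It rose 1.30-fold from the nulliparous to the involution stage (log2 difference 0.38 ± 0.071 SE, adjusted p = 0.00749), and the mice of these stages did not overlap. F10, which cleaves prothrombin, was 388 ± 54.0, 406 ± 86.3 and 530 ± 76.2 TPM in the same order of stages. It was higher at involution day 6 than in lactation (log2 difference 0.40 ± 0.131, adjusted p = 0.0346) and stood just under the threshold against nulliparous mice (adjusted p = 0.04996). These calls were lost in 6 and in 14 of the 19 fits that each left out 1 mouse. F2, the precursor of thrombin, was 1319 ± 229, 1372 ± 254 and 1747 ± 156 TPM and passed against lactation only (log2 difference 0.36 ± 0.126, adjusted p = 0.0445, lost in 10 of the 19 fits). F9 did not pass in any comparison, at means of 86.7, 95.5 and 98.1 TPM.

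F5, the cofactor of factor X, and F13b, the carrier subunit of the transglutaminase that cross-links fibrin, did not pass in any comparison with all mice and no covariate. F5 had means of 78.7, 71.0 and 89.6 TPM (adjusted p = 0.0543 at involution day 6 compared with lactation day 10), and F13b had means of 127, 114 and 127 TPM. With the range of animal number as a covariate both were higher at involution than in lactation (adjusted p = 0.0455 for F5 and 0.00661 for F13b), and F13b was lower in lactation than in nulliparous mice (-0.174, adjusted p = 0.0298).

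The contact system starts clotting on charged surfaces and releases bradykinin. At lactation day 10, 2 of its 5 genes were lower and 1 was higher than in nulliparous mice. Klkb1 encodes plasma prekallikrein, the protease that cuts kininogen. Its level ran from 57.3 to 76.5 TPM in nulliparous mice (median 65.1), from 42.8 to 55.2 TPM at lactation day 10 (median 46.6) and from 57.3 to 67.8 TPM at involution day 6 (median 60.0). The lactating mice were thus below every mouse of the other stages, whereas involution and nulliparous mice overlapped. Klkb1 fell by 27.0% from the nulliparous stage to lactation (log2 difference -0.44 ± 0.077, adjusted p = 0.00126) and was 28.7% higher at involution than in lactation (0.36 ± 0.080, adjusted p = 0.00314). With median-ratio scaling the second difference was 0.20 and did not pass (adjusted p = 0.180), while the first did (-0.39, adjusted p = 0.0140). The gene model Gm45753 overlaps Klkb1 on the same strand and shares 42.1% of the windows of 100 bases of its transcript. Reads of the shared stretches could be divided between them, and Gm45753 had means of 1.92, 5.16 and 3.79 TPM in the same order of stages.

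Kng1, the kininogen that carries bradykinin, went the other way. It ran from 1236 to 1417 TPM in nulliparous mice (median 1343), from 1638 to 1855 TPM at lactation day 10 (median 1757) and from 1433 to 1780 TPM at involution day 6 (median 1461). No lactating mouse overlapped with a nulliparous one, and the involution mice overlapped with the lactating mice and were above all nulliparous mice. Kng1 rose 1.31-fold from the nulliparous stage to lactation (log2 difference 0.39 ± 0.062, adjusted p = 5.01e-04) and was 12.0% lower at involution than in lactation (-0.19 ± 0.064, adjusted p = 0.0395). The latter call was lost in 9 of the 19 fits that left out 1 mouse, and the former in none. With median-ratio scaling and only mice numbered 200 and above, the lactation call of Kng1 was lost. Its neighbour and close relative Kng2 had means of 228, 244 and 270 TPM and did not pass in any comparison. The transcripts of Kng1 and Kng2 share 5.80% and 5.69% of their windows of 100 bases, so reads of the shared stretches could be divided between them.

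F11, the zymogen that activates factor IX, had the largest fall of the coagulation genes in lactation, and its mice were the most divided by animal number. It was 58.7 ± 16.3 TPM in nulliparous mice, 38.6 ± 11.7 TPM at lactation day 10 and 61.7 ± 4.91 TPM at involution day 6. The log2 difference was -0.60 ± 0.186 in lactation compared with nulliparous mice (adjusted p = 0.0487) and 0.71 ± 0.193 at involution compared with lactation (adjusted p = 0.0118). The lactation call was lost in 13 of the 19 fits that left out 1 mouse. Mice numbered under 200 had means of 42.7 TPM (nulliparous) and 28.0 TPM (lactation), and those numbered 200 and above had means of 70.7 and 49.1 TPM. With only the higher-numbered mice the lactation difference was -0.51 (adjusted p = 0.00542) and the difference at involution compared with lactation was 0.32 (adjusted p = 0.0223). F12, which starts the contact pathway, was higher at involution than in lactation (155, 158 and 197 TPM, log2 difference 0.33 ± 0.111, adjusted p = 0.0399, lost in 8 of the 19 fits). That difference was 0.15 with only the higher-numbered mice (adjusted p = 0.108).

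Of the pair of vitamin K enzymes, Vkorc1, the epoxide reductase that warfarin inhibits, was 407 ± 28.3 TPM in nulliparous mice, 368 ± 28.1 TPM in lactation and 458 ± 49.2 TPM at involution day 6. It was 24.4% higher at involution than in lactation (log2 difference 0.31 ± 0.073, adjusted p = 0.00480). The overlapping gene model Gm21974 shares 46.7% of the windows of the Vkorc1 transcript. Gm21974 itself had means of 0.00571 TPM in nulliparous mice, 0 TPM in lactation and 0 TPM at involution. Ggcx, the gamma-carboxylase itself, did not pass in any comparison, at means of 33.0, 33.8 and 35.8 TPM.

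Among the 6 anticoagulant genes, those of the protein C system moved most. Pros1 encodes protein S, the cofactor of activated protein C and a binding partner of C4b-binding protein. Its level ran from 15.4 to 19.7 TPM in nulliparous mice (median 18.0), from 13.7 to 16.8 TPM at lactation day 10 (median 15.9) and from 24.9 to 29.3 TPM at involution day 6 (median 26.5). All 6 involution mice were above all 13 others, and nulliparous and lactating mice overlapped. Pros1 was 1.71-fold higher at involution than in lactation (log2 difference 0.73 ± 0.064, adjusted p = 7.69e-07) and 49.8% higher than in nulliparous mice (0.56 ± 0.061, adjusted p = 7.51e-05). The first of these had the smallest adjusted p of the 41 genes. With only mice numbered 200 and above, Pros1 still passed in both comparisons (log2 differences 0.68 and 0.53, adjusted p = 2.94e-05 and 7.48e-04).

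Proc, which encodes protein C, the protease that inactivates factor V, ran from 388 to 466 TPM in nulliparous mice (median 408), from 294 to 388 TPM at lactation day 10 (median 333) and from 412 to 578 TPM at involution day 6 (median 502). Lactating mice were below all others, although their highest value (387.72 TPM) and the lowest nulliparous value (387.82 TPM) all but met. Proc fell by 19.5% from the nulliparous stage to lactation (log2 difference -0.31 ± 0.081, adjusted p = 0.0195) and was 1.49-fold higher at involution than in lactation (0.57 ± 0.085, adjusted p = 9.41e-05). Only the second difference passed with the higher-numbered mice alone (0.46, adjusted p = 0.00768; for the first, -0.20, adjusted p = 0.328). The first was also lost when 1 of the lactating mice was left out (adjusted p = 0.0535).

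Serpind1, heparin cofactor II, ran from 309 to 407 TPM in nulliparous mice (median 364), from 288 to 349 TPM at lactation day 10 (median 326) and from 395 to 450 TPM at involution day 6 (median 420.3). Involution mice were above all lactating mice and overlapped with the nulliparous ones. It was 31.1% higher at involution than in lactation (log2 difference 0.39 ± 0.074, adjusted p = 8.29e-04). The other anticoagulant genes did not pass in any comparison, except that Proz was higher in lactation than in nulliparous mice with median-ratio scaling (log2 difference 0.182, adjusted p = 0.0299). Serpinc1, antithrombin and the most abundant of the 41, had means of 5177, 5317 and 5933 TPM. Proz, the cofactor of the protein Z-dependent inhibitor, had means of 152 (nulliparous), 167 and 173 TPM, and Serpina10, that inhibitor, had means of 149, 135 and 149 TPM.

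The 3 genes of fibrinolysis all passed at involution day 6 compared with lactation day 10, and all were higher (1 of 3 passed with median-ratio scaling, with all differences above 0). Plg, plasminogen, ran from 953 to 1547 TPM in nulliparous mice (median 1272), from 1056 to 1264 TPM at lactation day 10 (median 1101) and from 1423 to 1729 TPM at involution day 6 (median 1561). Involution mice were above all lactating mice. The log2 difference was 0.46 ± 0.095 compared with lactation (adjusted p = 0.00174) and 0.35 ± 0.092 compared with nulliparous mice (adjusted p = 0.0389, lost in 7 of the 19 fits that left out 1 mouse). The inhibitors of fibrinolysis moved the same way. Cpb2, a carboxypeptidase that protects fibrin from plasmin, was 257 ± 19.5, 283 ± 26.1 and 348 ± 38.1 TPM and was higher at involution than at both other stages (log2 differences 0.29 and 0.43, adjusted p = 0.0110 and 0.00480). Serpinf2, antiplasmin, was 809 ± 54.6, 704 ± 57.7 and 864 ± 68.4 TPM and passed against lactation only (0.30 ± 0.070, adjusted p = 0.00480).

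**Figure D3:**
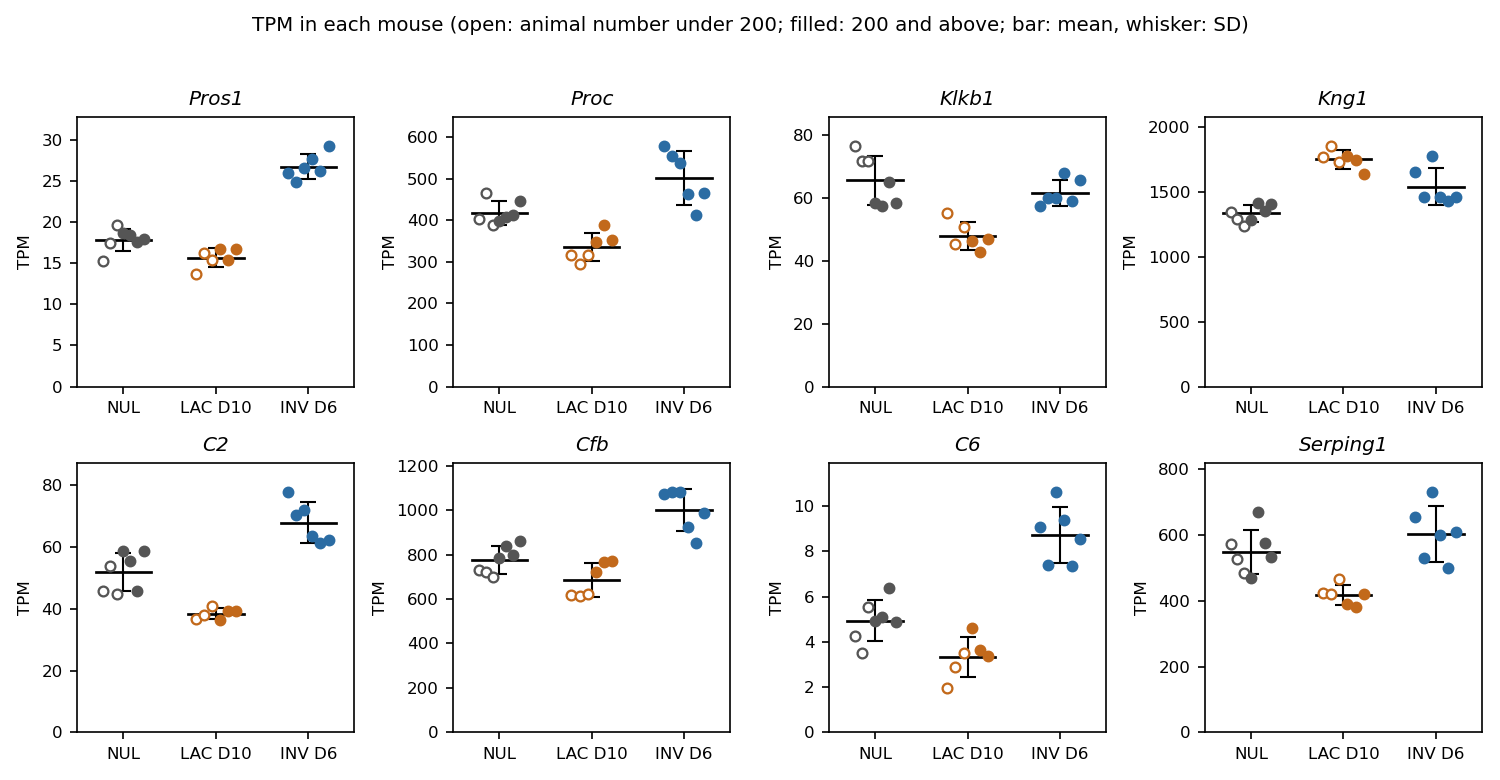
TPM (vertical axes, from 0) of 8 of the 41 genes in each nulliparous (NUL), lactation day 10 (LAC D10) and involution day 6 (INV D6) mouse. Points are mice, open for animal numbers under 200 and filled for 200 and above, with the stage mean (bar) and SD (whisker); Pros1 and C2 show the 6 involution mice above all others, and Kng1 shows the lactating mice above all nulliparous mice.

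Complement gave larger differences than coagulation at involution day 6 compared with lactation day 10, as a description: 11 of 19 complement genes were higher, with a median log2 difference of 0.502, and 12 of 22 coagulation genes were higher, with a median of 0.303. The difference between the groups of genes was not tested. All 4 genes of the classical pathway were higher (3 of 4 with median-ratio scaling). C2 encodes the protease part of the classical and lectin C3 convertase. It ran from 44.9 to 58.8 TPM in nulliparous mice (median 53.8), from 36.5 to 40.9 TPM at lactation day 10 (median 38.6) and from 61.3 to 77.8 TPM at involution day 6 (median 67.0). The 3 stages did not overlap at any point, with lactation lowest and involution highest. C2 fell by 25.9% from the nulliparous stage to lactation (log2 difference -0.42 ± 0.076, adjusted p = 0.00188), and at involution it was 1.77-fold higher than in lactation (0.80 ± 0.079, adjusted p = 2.16e-06) and 1.31-fold higher than in nulliparous mice (0.39 ± 0.076, adjusted p = 0.0108). With only mice numbered 200 and above, the first and the second difference still passed (-0.49 and 0.81, adjusted p = 0.0110 and 1.50e-04), and the last did not (0.31, adjusted p = 0.131). When TPM of these mice were also scaled by median ratios, the first did not pass.

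C1ra, a protease of the C1 complex, ran from 87.2 to 122 TPM in nulliparous mice (median 109.8), from 88.0 to 131 TPM at lactation day 10 (median 103) and from 141 to 164 TPM at involution day 6 (median 148). All involution mice were above all others, and the other stages overlapped. C1ra was 40.3% higher at involution than in lactation (log2 difference 0.50 ± 0.103, adjusted p = 0.00169) and 40.0% higher than in nulliparous mice (0.49 ± 0.099, adjusted p = 0.0124). The differences were 0.28 and 0.37 with only the higher-numbered mice, and both passed (adjusted p = 0.0156 and 0.0190). Its copy C1rb and a pseudogene share 35.9% of its windows, and C1rb itself was at means of 4.67, 4.65 and 7.14 TPM.

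C4b, the complement component C4 that is cleaved to build the convertase, ran from 243 to 447 TPM in nulliparous mice (median 316), from 247 to 299 TPM at lactation day 10 (median 269) and from 375 to 523 TPM at involution day 6 (median 405). Involution mice were above all lactating mice, and the nulliparous mice were spread over the ranges of both. The log2 difference at involution compared with lactation was 0.63 ± 0.122 (adjusted p = 0.00114). C4a, its near copy, shares 16.5% of the C4b windows. C1s1, the other protease of C1, was 155 ± 30.7 TPM in nulliparous mice, 142 ± 49.6 TPM in lactation and 213.3 ± 7.38 TPM at involution day 6 (log2 difference compared with lactation 0.66 ± 0.184, adjusted p = 0.0145). Like F11 it was split by animal number, with lactation means of 97.2 TPM under 200 and 187 TPM at 200 and above, and the difference was 0.19 with only the latter (adjusted p = 0.0348).

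In the lectin pathway 2 of 4 genes passed, both at involution compared with lactation. Mbl2, mannose-binding lectin C, was 940 ± 158, 827 ± 190 and 1208 ± 60.4 TPM (log2 difference 0.58 ± 0.143, adjusted p = 0.00677). Its lactation means were 667 TPM under 200 and 986 TPM at 200 and above, and the difference was 0.29 with only the latter (adjusted p = 0.00637). Masp2, the protease that cleaves C4 and C2 in this pathway, was 191 ± 10.8, 171 ± 7.99 and 191 ± 11.9 TPM (0.16 ± 0.055, adjusted p = 0.0447, lost in 12 of the 19 fits that left out 1 mouse), and its sign turned (-0.004) once TPM were scaled by median ratios. Tardbp overlaps 54.9% of the exon bases of Masp2 on the other strand, and whether the counting used strand is not given in the sources used here. Mbl1, mannose-binding lectin A, and Masp1, a related protease, did not pass in any comparison, at means of 294, 232.1 and 219 TPM and of 32.8, 30.7 and 35.8 TPM. With the range as a covariate Mbl1 was lower in lactation than in nulliparous mice (log2 difference -0.349, adjusted p = 0.00681).

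C3, the component on which all routes meet, was 2901 ± 781 TPM in nulliparous mice, 3068 ± 591 TPM in lactation and 3984 ± 299 TPM at involution day 6. Despite these means it did not pass in any comparison (adjusted p = 0.0788 at involution compared with lactation and 0.0651 compared with nulliparous mice). C3 was split by animal number, with nulliparous means of 2176 TPM under 200 and 3444 TPM at 200 and above. In lactation these means were 2680 and 3455 TPM. With only the higher-numbered mice the involution differences were 0.217 compared with lactation and 0.22 compared with nulliparous mice (limma, adjusted p = 0.3 and 0.505). Cfb encodes factor B, the protease part of the alternative C3 convertase. It ran from 698 to 860 TPM in nulliparous mice (median 784), from 616 to 772 TPM at lactation day 10 (median 673) and from 853 to 1082 TPM at involution day 6 (median 1030.1). Involution mice were above all lactating mice, and 1 nulliparous mouse reached into their range. Cfb was 1.46-fold higher at involution than in lactation (log2 difference 0.54 ± 0.083, adjusted p = 1.19e-04) and 1.29-fold higher than in nulliparous mice (0.36 ± 0.080, adjusted p = 0.0184). C2 and Cfb lie side by side and are joined in the readthrough model Gm20547, which shares 53.2% and 81.0% of their windows. Gm20547 itself had means of 0.0229 TPM in nulliparous mice, 0 TPM in lactation and 0.01 TPM at involution.

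The 6 genes of the terminal pathway all had differences below 0 in lactation compared with nulliparous mice, with a median of -0.427, and 2 of them passed. With median-ratio scaling all 6 were still below 0, with a median of -0.374, and both calls were lost (limma, adjusted p = 0.0642 for C6 and 0.0714 for C9). C6, a component of the pore and the least abundant of the 41 genes, ran from 3.50 to 6.37 TPM in nulliparous mice (median 4.94), from 1.98 to 4.62 TPM at lactation day 10 (median 3.46) and from 7.37 to 10.6 TPM at involution day 6 (median 8.81). All involution mice were above all others, and nulliparous and lactating mice overlapped. C6 fell by 32.4% from the nulliparous stage to lactation (log2 difference -0.46 ± 0.132, adjusted p = 0.0322), a call lost in 6 of the 19 fits that left out 1 mouse. At involution it was 2.62-fold higher than in lactation (1.18 ± 0.137, adjusted p = 1.11e-05) and 1.77-fold higher than in nulliparous mice (0.72 ± 0.132, adjusted p = 0.00723). These are differences of log2(TPM + 1), which understate the change of a gene this low.

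C9, which forms the ring of the pore, had the next largest difference after C6 at involution compared with lactation. It was 88.5 ± 24.0 TPM in nulliparous mice, 53.4 ± 11.7 TPM in lactation and 101 ± 23.9 TPM at involution day 6, and the ranges of the stages overlapped. The log2 difference was -0.69 ± 0.195 in lactation compared with nulliparous mice (adjusted p = 0.0306, lost in 7 of the 19 fits) and 0.90 ± 0.203 at involution compared with lactation (adjusted p = 0.00345). Hc, which encodes C5, was 200.6 ± 45.2, 174 ± 10.7 and 251 ± 12.2 TPM and was higher at involution than in lactation (0.53 ± 0.112, adjusted p = 0.00209). The 3 chains of C8 did not pass in any comparison with all mice and no covariate. Their means were 120, 97.3 and 124 TPM for C8a, 63.0, 46.1 and 58.2 TPM for C8b, and 441, 317 and 384 TPM for C8g, for which the lactation difference was -0.45 (adjusted p = 0.0537). With the range as a covariate C8g was lower in lactation than in nulliparous mice (-0.486, adjusted p = 0.00193) and higher at involution than in lactation (0.511, adjusted p = 0.00301), and the latter also passed with only mice numbered 200 and above (0.446, adjusted p = 0.0345).

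Serping1 is the C1 inhibitor, which also restrains kallikrein and factor XII. It ran from 471 to 670 TPM in nulliparous mice (median 533), from 383 to 466 TPM at lactation day 10 (median 421) and from 499 to 732 TPM at involution day 6 (median 604). Lactating mice were below all others, and the other stages overlapped. Serping1 fell by 23.8% from the nulliparous stage to lactation (log2 difference -0.39 ± 0.090, adjusted p = 0.0106) and was 44.7% higher at involution than in lactation (0.52 ± 0.094, adjusted p = 5.51e-04), and both differences passed with only the higher-numbered mice (adjusted p = 0.0437 and 0.00625). With median-ratio scaling the lactation difference did not pass (-0.333, adjusted p = 0.0621), and with this scaling and only the higher-numbered mice neither did. Cfi, the protease that degrades C3b, was 420 ± 73.9, 468 ± 85.5 and 579 ± 78.7 TPM and was higher at involution than in nulliparous mice (0.47 ± 0.126, adjusted p = 0.0413, lost in 9 of the 19 fits that left out 1 mouse). C4bp, the C4b-binding protein, did not pass at means of 202, 257 and 226.5 TPM (adjusted p = 0.0508 in lactation compared with nulliparous mice). It was higher in lactation than in nulliparous mice with only mice numbered 200 and above (log2 difference 0.58, adjusted p = 0.00864), with the range as a covariate (0.346, adjusted p = 0.0239) and with median-ratio scaling (0.389, adjusted p = 0.0491).

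Promoters from RefSeq on GRCm38.p6, spanning 250 bases before to 50 bases after the transcription start, were found for 31 of the 41 genes. They are shown 5′ to 3′ for the 2 genes with the smallest adjusted p among these 31, Pros1 (chr16:62854057-62854356, plus strand) and C6 (chr15:4726960-4727259, plus strand), and for Klkb1 (chr8:45294786-45295085, minus strand), which had the smallest adjusted p among these 31 in lactation compared with nulliparous mice. Capitals mark a match to the STAT motif in Pros1 and to the C/EBP motif in Klkb1, and C6 holds no match to any of the motifs described here.

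Pros1: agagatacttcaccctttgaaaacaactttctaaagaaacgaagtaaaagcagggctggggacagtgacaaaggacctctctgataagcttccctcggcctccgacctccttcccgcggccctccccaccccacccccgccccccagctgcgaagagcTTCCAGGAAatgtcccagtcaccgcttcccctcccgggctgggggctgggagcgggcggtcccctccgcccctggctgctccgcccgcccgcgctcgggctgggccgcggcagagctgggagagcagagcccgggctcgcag
C6: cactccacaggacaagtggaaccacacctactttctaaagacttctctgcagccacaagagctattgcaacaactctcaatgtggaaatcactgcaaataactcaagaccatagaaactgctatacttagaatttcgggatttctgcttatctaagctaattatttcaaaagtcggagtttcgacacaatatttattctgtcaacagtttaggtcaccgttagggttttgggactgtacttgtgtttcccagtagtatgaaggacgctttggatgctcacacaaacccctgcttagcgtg
Klkb1: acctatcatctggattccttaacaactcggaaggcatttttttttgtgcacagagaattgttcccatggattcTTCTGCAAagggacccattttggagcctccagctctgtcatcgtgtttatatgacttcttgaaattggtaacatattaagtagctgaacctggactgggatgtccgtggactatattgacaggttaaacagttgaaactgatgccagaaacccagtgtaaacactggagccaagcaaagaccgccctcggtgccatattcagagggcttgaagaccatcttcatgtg

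The motifs were searched on both strands and stand for factors known in liver. STAT (TTCNNNGAA), a palindrome, was found in 5 of the 31 promoters (16.1%), against 8.47% of all 27025 promoters. C/EBP (TTGCNNAA) was found in 11 (35.5%, against 10.8%), and the HNF4 motif (CAAAGTCCA) in none, against 0.477%. The Pros1 match begins 92 bases before the start and the Klkb1 match 177 bases before it. A match is a description of the letters only.

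Other genes of the same cascades, 34 listed and 32 tested, were examined in the same way. At lactation day 10 compared with nulliparous mice, 9 of the 32 were lower (6.49% of all genes) and 1 was higher (2.72%). At involution day 6, 20 of the 32 were higher than in lactation (18.1% of all genes) and 6 were higher than in nulliparous mice (3.44%). With median-ratio scaling these numbers were 14 and 1. The fibrinogen chains Fga, Fgb and Fgg had means of 2104, 1110 and 2225 TPM in lactation and 3175, 1600 and 3271 TPM at involution, and all 3 were higher at involution (adjusted p = 0.00670, 0.0226 and 0.0133). The C1q chains (C1qa, C1qb and C1qc), which macrophages make, were lower in lactation and higher at involution than at both other stages. With median-ratio scaling at most 1 of these 3 chains stayed higher than in nulliparous mice, since only 1 of the 32 genes did. C1qa, for example, was 65.7 ± 13.7 TPM in nulliparous mice, 43.5 ± 7.61 TPM in lactation and 95.6 ± 6.11 TPM at involution. Colec11, a lectin of the lectin pathway, was 26.3 ± 2.78, 18.0 ± 1.73 and 29.9 ± 3.19 TPM and passed in lactation (adjusted p = 5.36e-04) and at involution compared with lactation (adjusted p = 1.61e-05).

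Coagulation and complement proteins include acute phase proteins, whose synthesis rises in inflammation. Of 16 other acute phase genes, 5 were lower in lactation than in nulliparous mice (6.49% of all genes). At involution 10 of them were higher (18.1% of all genes) and 1 was lower (4.73%) than in lactation. Saa3, a serum amyloid A gene, was 18.4 ± 10.6, 4.67 ± 3.99 and 91.3 ± 31.3 TPM, and Hamp, the iron regulator hepcidin, was 7303 ± 2559, 1618 ± 1199 and 8623 ± 1158 TPM. For these the log2 differences at involution compared with lactation were 4.28 and 2.997, against 1.18 or less for each of the 41 genes. Both were split by animal number in lactation and in nulliparous mice. In lactation Saa3 had means of 1.42 TPM under 200 and 7.93 TPM at 200 and above, and Hamp had 745 and 2491 TPM. In nulliparous mice these means were 7.12 and 26.8 TPM for Saa3 and 4846 and 9146 TPM for Hamp. The involution mean of Hamp was thus below the nulliparous mean at 200 and above. Not all of the 16 genes rose: means in lactation and at involution were 1321 and 1310 TPM for Orm1 and 286 and 194 TPM for Crp.

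The range of animal number moved with many of the same genes. With stage in the model, 19 of the 41 genes differed between the ranges, against the 25.6% of all genes given above. The largest differences were those of F11 (log2 0.75 ± 0.073, higher at 200 and above, adjusted p = 1.3e-05), C1s1 (0.72 ± 0.070, adjusted p = 1.3e-05) and Mbl1 (-0.55 ± 0.087, adjusted p = 6.55e-04). In all 14 were higher and 5 lower at 200 and above. The summed level of the 41 genes was 18602 to 20268 TPM in nulliparous mice under 200 and 20736 to 24318 TPM in those of 200 and above, and in lactation it was 18912 to 19445 TPM and 20876 to 22759 TPM. Involution mice, all of them numbered 200 and above, held 23404 to 27121 TPM. An interaction of lactation and range passed for none of the 41 genes (limma; 0.111% of all genes, and 8 of the 41 at an unadjusted p under 0.05).

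With only mice numbered 200 and above, 7 of the 41 genes passed in lactation compared with nulliparous mice (7.07% of all genes), 20 at involution compared with lactation (14.1%) and 5 at involution compared with nulliparous mice (0.819%). Of the calls made with all mice, 5 of 8, 17 of 24 and 4 of 10 were kept. In the first comparison these were F11, Klkb1, Kng1, C2 and Serping1, and in the last they were Pros1, Cpb2, C1ra and C6. With all mice and the range as a covariate, 15 of the 41 genes passed in lactation compared with nulliparous mice, the 8 above and F7, F13b, Serpinf2, Masp2, Mbl1, C8g and C4bp. Calls over all genes rose in this fit as well, and their numbers are given in the closing section. With only the higher-numbered mice, the 7 genes not kept at involution compared with lactation were F2, F10, F12, Kng1, Vkorc1, Cpb2 and Masp2.

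**Figure D4:**
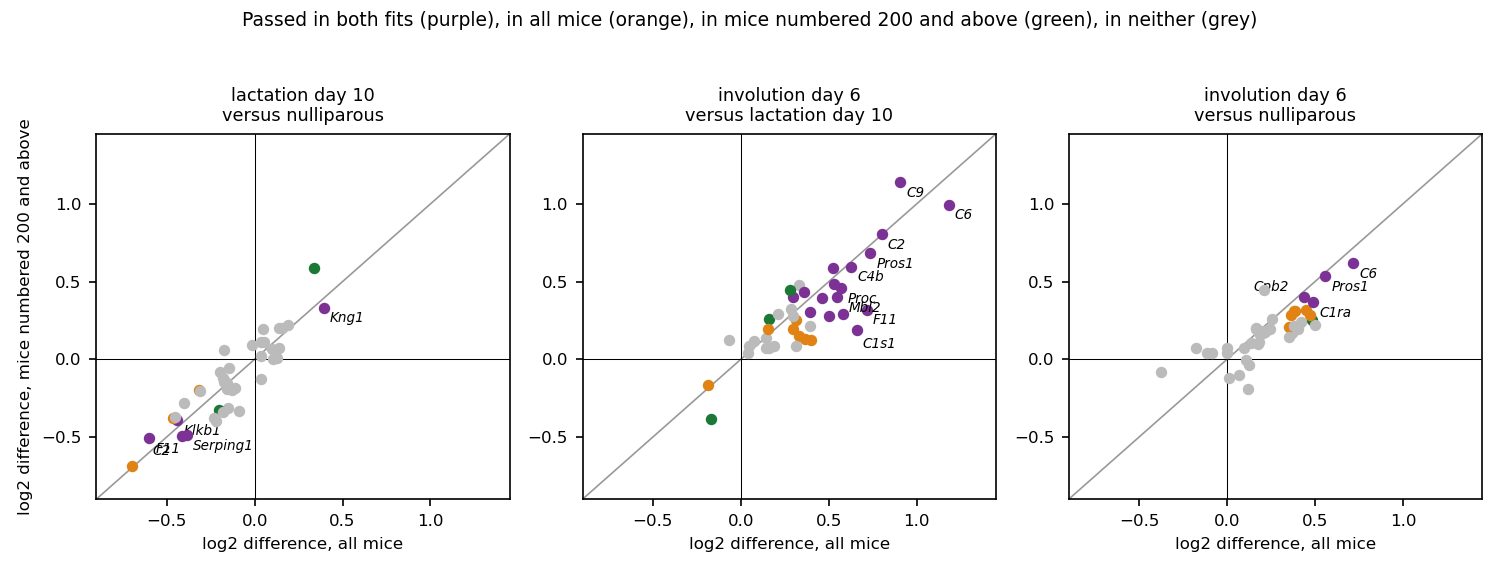
Log2 difference of TPM + 1 with all 19 mice (horizontal axes) and with only mice numbered 200 and above (vertical axes) for the 41 genes in the 3 comparisons; the grey diagonal marks equal values. Purple genes passed in both fits (5, 17 and 4), orange genes with all mice only, green genes with the higher-numbered mice only and grey genes in neither; F11 and C1s1 lie well below the diagonal in the middle panel.

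TPM are shares, and the albumin gene alone took a changing part of them. How far this gene accounts for the effect of the rescaling below was not tested. Alb was at 55210 ± 9427 TPM in nulliparous mice, 100200 ± 16460 TPM at lactation day 10 and 62530 ± 10280 TPM at involution day 6. When TPM were rescaled by a median-ratio factor per mouse, the median of all genes at involution compared with lactation moved from 0.099 to -0.004, and all genes called went from 2936 higher and 767 lower to 1312 higher and 1341 lower. Of the 41 genes 13 were then higher and 1 lower, in place of 23 and 1, and their median difference was 0.166. The calls lost were those of F2, F10, F12, Klkb1, Vkorc1, Serpind1, Cpb2, Serpinf2, C1s1 and Masp2. In lactation compared with nulliparous mice the 41 genes gave 4 higher and 2 lower with this scaling, in place of 1 and 7 (F11, Proc, C6, C9 and Serping1 lost, and F7, Proz and C4bp gained), and all genes 739 higher and 746 lower, in place of 441 and 1053. At involution compared with nulliparous mice 3 of the 41 genes remained called, Pros1, C1ra and C6, and of all genes called 43.7% were higher, in place of 79.1%. At involution compared with lactation, Pros1, C2, C6, Proc, Cfb, C9, Serping1 and Kng1 were among those that passed under TPM, with this scaling and with this scaling plus the range as a covariate. Of these, Proc, Cfb, Serping1 and Kng1 did not pass with this scaling and only the mice numbered 200 and above. Kng1 also did not pass with the range as a covariate and no scaling (limma, adjusted p = 0.0503).

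Markers of other cells moved with stage as well, and the shares of all genes called in each comparison are those given above. All 6 Kupffer cell and macrophage markers were lower in lactation than in nulliparous mice (4 of 6 with median-ratio scaling) and higher at involution than at both other stages (5 of 6 with this scaling compared with nulliparous mice). Their summed level was 160 to 306 TPM in nulliparous mice, 104 to 217 TPM in lactation and 353 to 499 TPM at involution. Of 6 sinusoidal endothelium markers 4 were higher at involution than in lactation, with sums of 122 to 156, 66.5 to 125 and 161 to 179 TPM. All 5 red blood cell genes were lower at involution than at both other stages, with sums of 1144 to 2407, 1331 to 3336 and 197 to 847 TPM. Of the 6 hepatocyte markers Alb was higher and the others did not pass in lactation compared with nulliparous mice. At involution compared with lactation, 1 of these 6 was higher and 2 were lower at an unadjusted p under 0.05 (limma). The part of these cells in the differences of the 41 genes was not tested, and in bulk tissue fewer cells of a type and less RNA per cell cannot be told apart.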

How the data were processed

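Liver RNA of 19 mice was analysed from TPM values as deposited by the authors, with 2 decimals and 51826 gene entries. The authors selected poly(A) RNA, read libraries from both ends and quantified genes on GRCm38 with RSEM 1.3.1 (version from the submitters' processing notes), which divides reads that several genes could have given. The aligner and the strand setting are not given in the sources used here.

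On log2(TPM + 1), limma-trend (limma 3.58.1, R 4.3.3) gave each stage a mean in a joint fit of all mice, over the 16230 genes averaging 0.1 TPM or more, with Benjamini-Hochberg adjustment and a threshold of 0.05. TPM are not counts, so no count test, detection floor or counting interval was used. The fit was tested on simulated data. Gene models were taken from GENCODE release M21 and promoters from RefSeq, and transcripts were compared over windows of 100 bases.

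The 41 genes, the other gene lists and the tests were chosen with earlier results of these data known. The 12 genes with the smallest adjusted p were described in full, and the others by means, with test values where they passed. The alternatives changed the pseudocount (0.1, 0.5), the filter (1 TPM, none), the mice (only the 2 stages compared; numbers of 200 and above; 1 mouse left out at a time), the scaling (median ratios, quantiles), the moderation (robust) or the covariates (range of animal number). Some results that were computed are not reported here.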

Additional observations from a re-analysis of the deposited data

Results flagged for a closer look

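Among the 123 sets of mice tested (41 genes in 3 stages), 3 held a mouse that stood apart from its stage by Dixon's criterion, which chance alone meets in about 1 in 20 sets. F7 was 158.81 TPM in 1 involution mouse, and the next highest was at 142.25 TPM. C4b was 522.52 TPM in the same mouse, with the next at 423.77 TPM. This mouse was the highest of its stage for 19 of the 41 genes. Whichever mouse was left out, F7 passed at involution compared with nulliparous mice (log2 differences 0.348 to 0.411, adjusted p at most 0.0230), and C4b passed compared with lactation (0.56 to 0.655, adjusted p at most 0.00356). Masp2 was 155.29 TPM in 1 lactating mouse, the lowest of its stage, with the next at 171.48 TPM, and its call at involution compared with lactation was lost without that mouse, as it was without each of 11 others.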

How the results depend on the processing

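Of the 42 values called among the 41 genes, 30 passed whichever mouse was left out. TPM keep no depth, and all involution mice have animal numbers of 200 or above, so the stage cannot be told apart from the range of animal number against the lower-numbered mice. No paired analysis was possible because the stages share no replicate numbers. The cause of the changes below was not tested, except that fits with fewer mice have less power and fits without a filter adjust over more genes.

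In lactation compared with nulliparous mice, 8 of the 41 genes passed. The number was 5 with no filter, 5 with only the 2 stages compared, 15 with the range as a covariate, and 3 with median-ratio scaling and only mice numbered 200 and above. Over all genes, 1494 calls became 2548 with the covariate and 2571 with the covariate and median-ratio scaling. Leaving out 1 mouse gave 5 to 9 of the 41 genes, the lowest number without 1 nulliparous or 1 lactating mouse.

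At involution compared with lactation, 24 of the 41 genes passed. The number was 14 with median-ratio scaling, 9 with this scaling and the covariate, and 8 with this scaling and only the higher-numbered mice. Over all genes, 3703 calls became 2294 with only the higher-numbered mice, 2202 with scaling and the covariate, and 1896 with scaling and the higher-numbered mice. Differences that turned below 0 were those of F2 (-0.014) and F10 (-0.016) with scaling and the higher-numbered mice, F12 (-0.003) with scaling and the covariate, and Masp2 (-0.004) with scaling.

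At involution compared with nulliparous mice, 10 of the 41 genes passed. The number was 3 with median-ratio scaling, 5 with only the higher-numbered mice, 1 with scaling and the covariate (Pros1), and 2 with scaling and the higher-numbered mice. Over all genes, 707 calls became 367 with no filter, 378 with median-ratio scaling, 424 with quantile normalization, 255 with the covariate, about 1.3e+02 with the higher-numbered mice, 161 with scaling and the covariate, and 111 with scaling and the higher-numbered mice. Leaving out 1 mouse gave 7 to 18 of the 41 genes and 245 to 1487 of all genes, the highest numbers without the nulliparous mouse whose summed level was highest. The 2 combined settings (scaling with the covariate or with the higher-numbered mice) were chosen after seeing the data. Pseudocounts, a filter at 1 TPM and robust moderation left every count within 1.5 times its first value.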
